A study of Mus musculus with 4 samples.

Results

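Receptors for gut peptides and for histamine carry signals from endocrine cells, nerves and immune cells to the cells of the GIT and the CNS. The group described here holds 10 genes that were chosen by name, with earlier results of these data known. They are the cholecystokinin receptors *Cckar* and *Cckbr*, the neuropeptide Y family receptors *Npy4r* and *Npy1r*, the secretin receptor *Sctr*, the incretin and glucagon-like peptide receptors *Gipr*, *Glp1r* and *Glp2r*, the ghrelin receptor *Ghsr* and the histamine receptor *Hrh4*. All 10 were found among the 32585 genes or identifiers on the array, of which 20144 carried a gene symbol. They were represented by 16 probes, with 4 probes for *Sctr*, 2 each for *Cckbr*, *Glp1r* and *Glp2r*, and 1 for each of the other 6 receptors.

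The study measured RNA of the duodenum and the spinal cord from male *IP6K2*-/- mice and WT littermates, to see how loss of the kinase IP6K2 alters transcripts in the GIT and the CNS. The deletion removes an exon of *Ip6k2* that encodes part of the kinase domain. All mice were 20 weeks old, had been kept on the normal diet CE-2, were then given iVid-neo, a purified diet, over 1 week, and went without food for the final 48 h. Each genotype was hybridized once per tissue, on 4 arrays of 1 slide, so no value below has a replicate and no difference was tested. The authors identify the mutant line by a repository stock, but the background strain of these mice was not stated, nor whether both tissues of a genotype came from 1 mouse or from pooled animals.

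Most of these receptors couple to G proteins that either release calcium from internal stores or change the level of cyclic AMP. In the GIT their ligands come mainly from enteroendocrine cells of the epithelium and from enteric nerves, and they govern pancreatic and biliary secretion, gastric emptying, insulin release, growth of the mucosa and appetite. In the spinal cord, neuropeptide Y and cholecystokinin are transmitters of dorsal horn neurons, and the histamine receptor *Hrh4* is best known from cells of the blood and the immune system.

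The processed signal of a probe is its intensity after subtraction of the background. A probe was called well above background where the scanner software marked it so. For comparisons, log2 of the signal was taken and the 75th percentile of the array was subtracted, which gives the normalized level. Of several probes for a gene, the one brightest on average stands for it, and its other probes are given beside it. Differences are on the log2 scale, KO-labelled minus WT or duodenum minus spinal cord, and a difference of at least 2-fold was counted as apart. A technical SD is given with differences, estimated from 399 probes present in 10 spots per array. It reflects spot-to-spot scatter only, not the variation among mice. Where 1 of both arrays lacked a signal well above background, the difference is a bound, taken against the higher of 2 levels of the dimmer array, the lowest one called well above background and the probe's own.

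The 4 arrays differed in brightness. The 75th percentile of the signal was 905 in WT spinal cord, 971 in KO-labelled spinal cord, 68.0 in WT duodenum and 323 in KO-labelled duodenum. Probes well above background made up 76.7%, 77.3%, 51.6% and 66.3%, respectively. The WT duodenum array was thus the dimmest, and the lowest normalized level that could be called there was −3.99, against −6.22 in KO-labelled duodenum, −7.66 in WT spinal cord and −7.82 in KO-labelled spinal cord. No spot was marked as saturated on any array.

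*Ip6k2* itself was read first as a check of the labels. Its single probe gave signals of 452 in WT spinal cord, 1320.3 on the spinal cord array labelled *IP6K2*-/-, 139 in WT duodenum and 572 on the duodenum array labelled *IP6K2*-/-. The normalized difference was 1.45 in the spinal cord (technical SD 0.0591), higher on the KO-labelled array, and −0.21 in the duodenum (technical SD 0.0821). The probe was therefore not lower on the KO-labelled spinal cord array. Where this probe lies with respect to the deleted exon is unknown, and a probe outside that exon checks nothing. Genotypes are therefore given as labelled throughout, and each direction between genotypes rests on the labels.

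The tissue labels were checked against marker genes. In spinal cord, 9 of 9 neuronal markers and 8 of 8 oligodendrocyte markers were well above background on both arrays, with the neurofilament gene *Nefl* as the brightest of the neuronal list. In duodenum, 10 of 10 enterocyte markers were well above background on both arrays, led by the fatty acid binding protein gene *Fabp2*, while *Nefl* was below background in WT and gave a signal of 6.13 in KO-labelled duodenum. The duodenum arrays also held 10 of 10 pancreatic acinar markers well above background, with the elastase gene *Cela3b* as the brightest, so RNA of pancreatic type was present beside that of the gut wall. In spinal cord 7 (WT) and 6 (KO-labelled) of these acinar markers were above background, and *Cela2a*, *Cela3b* and *Prss2* were not on either array.

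Of the 10 receptors, 9 were well above background in WT spinal cord, 9 in KO-labelled spinal cord, 4 in WT duodenum and 8 in KO-labelled duodenum. *Npy4r* was missing from all 4 arrays and *Ghsr* from both duodenum arrays. In WT duodenum the 4 were *Cckar*, *Sctr*, *Glp2r* and *Hrh4*. The other 4 receptors that were above background in KO-labelled duodenum, *Cckbr*, *Npy1r*, *Gipr* and *Glp1r*, all had normalized levels there that lay under the lowest level that could be called on the dim WT array, so nothing can be said of a genotype difference for them in the duodenum. For that tissue the comparison of genotypes thus covers 4 receptors, with *Cckbr* left out only under the probe names used here, as described below. Levels of different probes cannot be set against each other, and no order of the receptors by abundance is given.

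**Figure D1:**
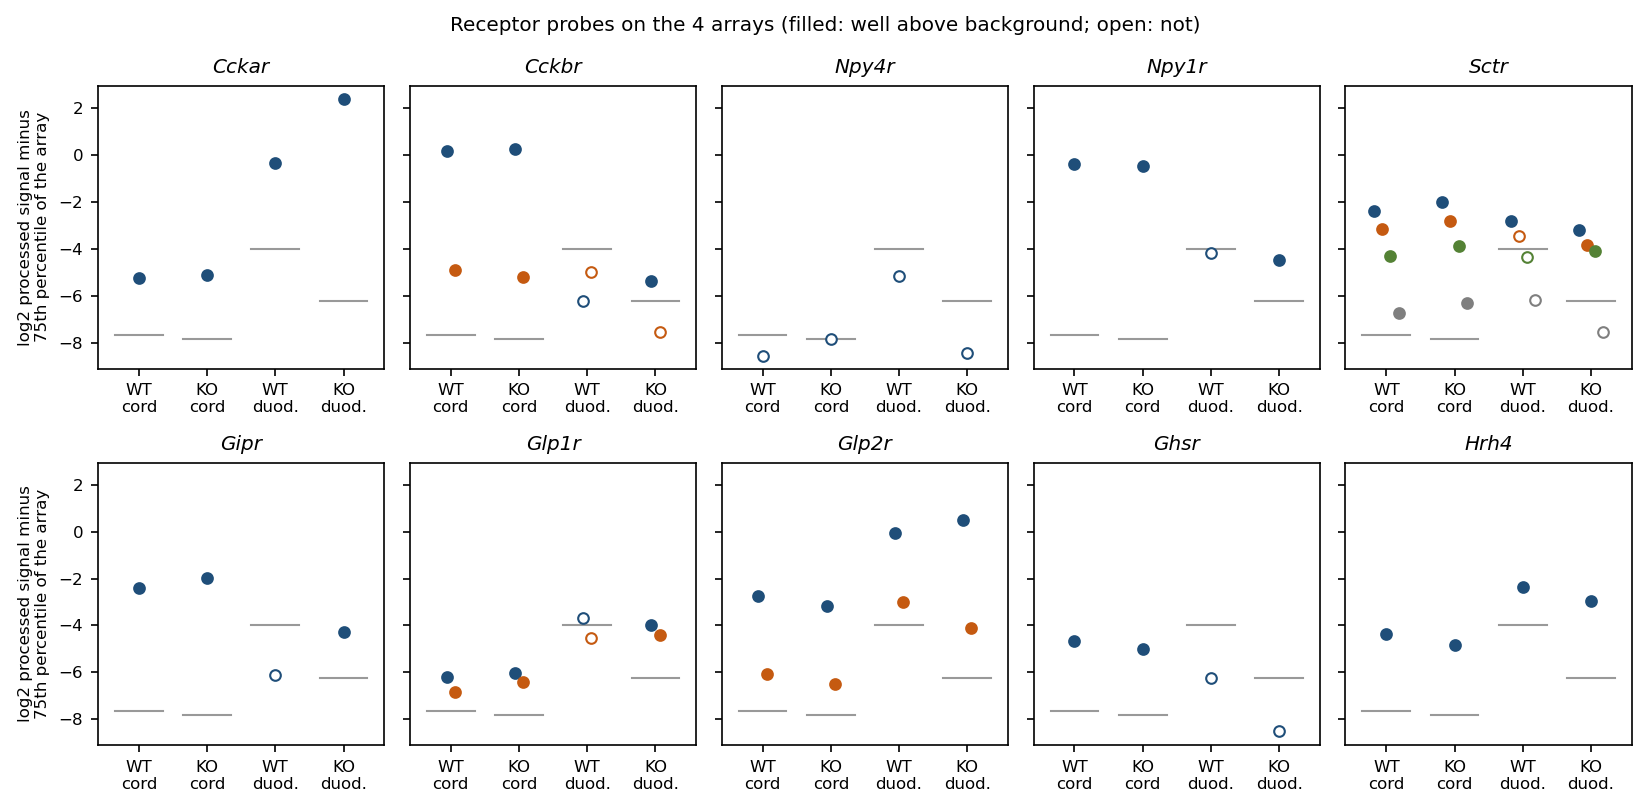
Normalized level (log2 processed signal minus the 75th percentile of the array, vertical axis) of each probe of the 10 receptors on the 4 arrays, 1 panel a gene. Filled points are well above background and open points are not, and the grey line is the lowest level well above background on each array; of the probes filled on both duodenum arrays, that of *Cckar* separates them most, at −0.32 and 2.40.

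**Figure D2:**
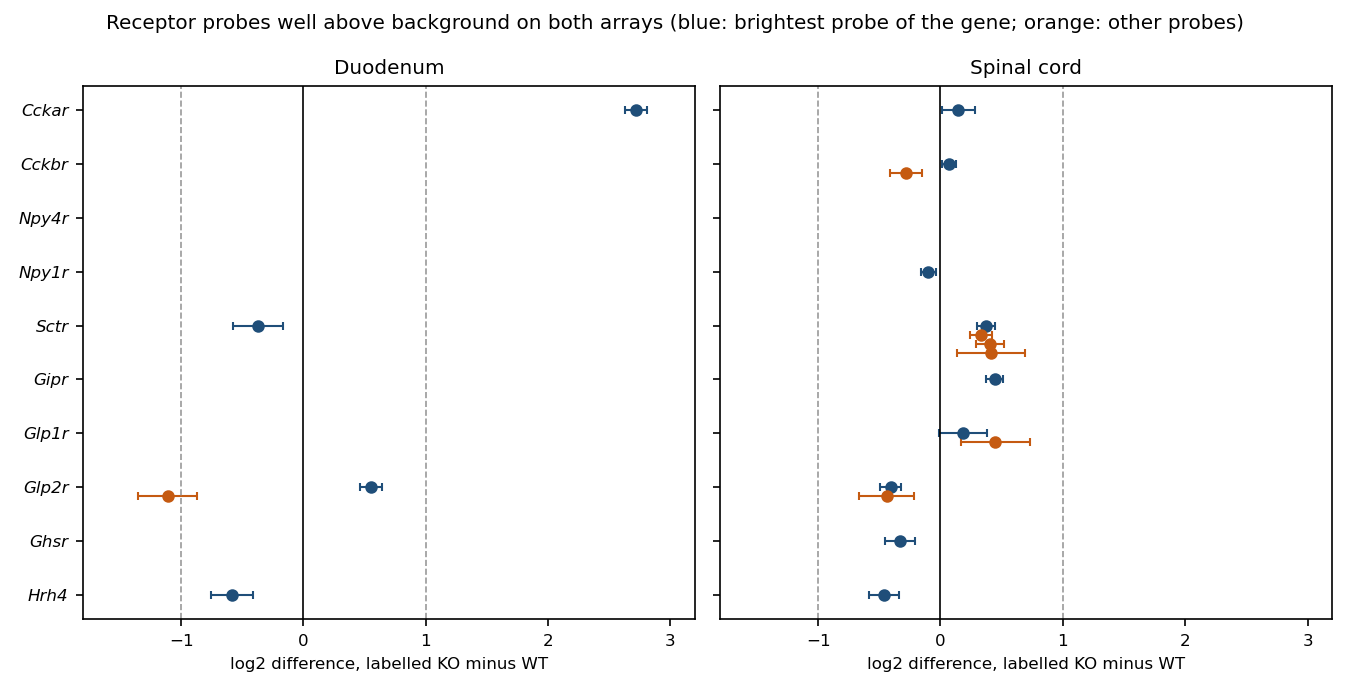
Difference between the KO-labelled and the WT array (log2, horizontal axis) for each receptor probe that was well above background on both arrays of a tissue, with the technical SD as bars and 2-fold as dashed lines. Blue marks the brightest probe of a gene and orange its other probes; *Cckar* in the duodenum (2.71) lies beyond 2-fold, and a dimmer probe of *Glp2r* (−1.11) lies beyond it on the other side.

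In the duodenum, 8 receptors were above background on at least 1 of both arrays. Of these 8, 1 was at least 2-fold higher on the KO-labelled array, 0 were at least 2-fold lower and 4 had no value. Over all 21434 genes above background on at least 1 of both arrays, the shares were 7.20% higher and 11.9% lower, and nothing particular to the receptors is read from a count of 1. The same shares are the background for the counts of the other lists in duodenum. The median difference of the 4 receptors with a value was 0.09, against −0.11 over the 16814 genes measured on both arrays. The receptor that stood apart was *Cckar*.

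*Cckar* encodes the receptor that responds to sulfated cholecystokinin and acts in gallbladder contraction, pancreatic enzyme secretion and satiety. Its 1 probe gave a signal of 24.0 in WT spinal cord, 28.5 in KO-labelled spinal cord, 54.6 in WT duodenum and 1700.15 in KO-labelled duodenum. It was well above background on all 4 arrays, low on both spinal cord arrays and high on the KO-labelled duodenum array. On the normalized scale the levels were −5.24, −5.09, −0.32 and 2.40. The duodenum difference was 2.71 with a technical SD of 0.0903, or 6.56-fold higher on the KO-labelled array. Among the 16814 genes measured on both duodenum arrays this was the 15th difference from the top, and 0.0833% of the genes lay higher. Relative to the median gene it was 2.83, and under 7 alternative treatments of the values it stayed between 2.31 and 5.72 without that subtraction, at least 2-fold and in the same direction each time. Among these, averaging of probes could not move a gene with 1 probe, and the table that the authors deposited repeats quantile normalization. In the spinal cord the *Cckar* difference was 0.15 with a technical SD of 0.134, and its sign was kept in 4 of 7 alternatives, with −2.04 under plain normexp and −0.03 with flagged backgrounds replaced.

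In bulk tissue, a change in the number of cells of a type and a change in RNA per cell cannot be told apart. *Cckar* is known from several cell types that a piece of proximal gut can hold, among them pancreatic acinar cells, chief cells of the stomach and enteric neurons, so their markers are given beside it. Summed over the list, in units of the 75th percentile of the array, the 10 acinar markers reached 0.497 in WT spinal cord, 0.529 in KO-labelled spinal cord, 14940.0 in WT duodenum and 4827 in KO-labelled duodenum. None of the 10 was at least 2-fold higher on the KO-labelled duodenum array and 6 were at least 2-fold lower, among them the chymotrypsinogen gene *Ctrb1* (−2.17), *Cela3b* (−2.06) and the carboxypeptidase gene *Cpa1* (−1.99). The median of the acinar markers was −1.61, or −1.49 relative to the median gene. It was 0.15 with quantile normalization of the 4 arrays, where *Cela3b* was at 0.00, and 1.40 with scaling on spiked-in controls. The direction of this list thus turned with the scaling, and the part of acinar cells in the *Cckar* difference was not tested. The acinar transcription factor *Ptf1a*, measured far below the enzymes' brightness, differed by 0.43.

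Markers of gastric mucosa moved in the direction of *Cckar*, with a median of 3.54 over the 4 measured on both arrays. Of 7 markers of gastric mucosa on the array, 4 were well above background in WT duodenum and 6 in KO-labelled duodenum, and their summed level was 7.42 in WT spinal cord, 6.18 in KO-labelled spinal cord, 8.55 in WT duodenum and 90.1 in KO-labelled duodenum, with the trefoil peptide gene *Tff1* the brightest on both duodenum arrays. The gastrokine gene *Gkn2* was higher by 4.63, *Tff1* by 3.79 and the surface mucin gene *Muc5ac* by 3.29 on the KO-labelled array, and the direction of each was kept under all 7 alternatives. The proton pump subunit *Atp4b* was not well above background on any array, *Atp4a* and *Gkn1* were so on the KO-labelled array alone, and the pepsinogen gene *Pgc*, a marker of chief cells and also of Brunner's glands, differed by −0.33. In spinal cord 4 (WT) and 2 (KO-labelled) of the gastric markers were above background, with *Gkn1* as the brightest.

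Pancreatic islet markers were mixed. Of 8 on the array, 7 were well above background in WT duodenum and 8 in KO-labelled duodenum, *G6pc2* being absent from the first. Their summed level was 3.34 in WT spinal cord, 3.24 in KO-labelled spinal cord, 46.5 in WT duodenum, led by the glucose transporter gene *Slc2a2*, and 86.8 in KO-labelled duodenum, led by the insulin gene *Ins2*. The hormone genes *Iapp* (1.96), *Ins1* (1.43) and *Ins2* (1.39) were at least 2-fold higher on the KO-labelled array in all 7 alternatives, whereas *Nkx6-1* (−1.84) was lower except with scaling on spiked-in controls. Over the 7 islet markers measured on both arrays the median was 0.14. Of 6 duct markers, the carbonic anhydrase gene *Car2* was higher (1.96) and none was at least 2-fold lower, with summed levels of 160 in WT and 89.4 in KO-labelled duodenum, *Krt19* the brightest. Of 3 markers of Brunner's glands, *Egf* was higher (1.72), with summed levels of 1141 and 709 and *Tff2* the brightest on both. The part of gastric, pancreatic or glandular tissue in the *Cckar* difference was not tested.

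**Figure D3:**
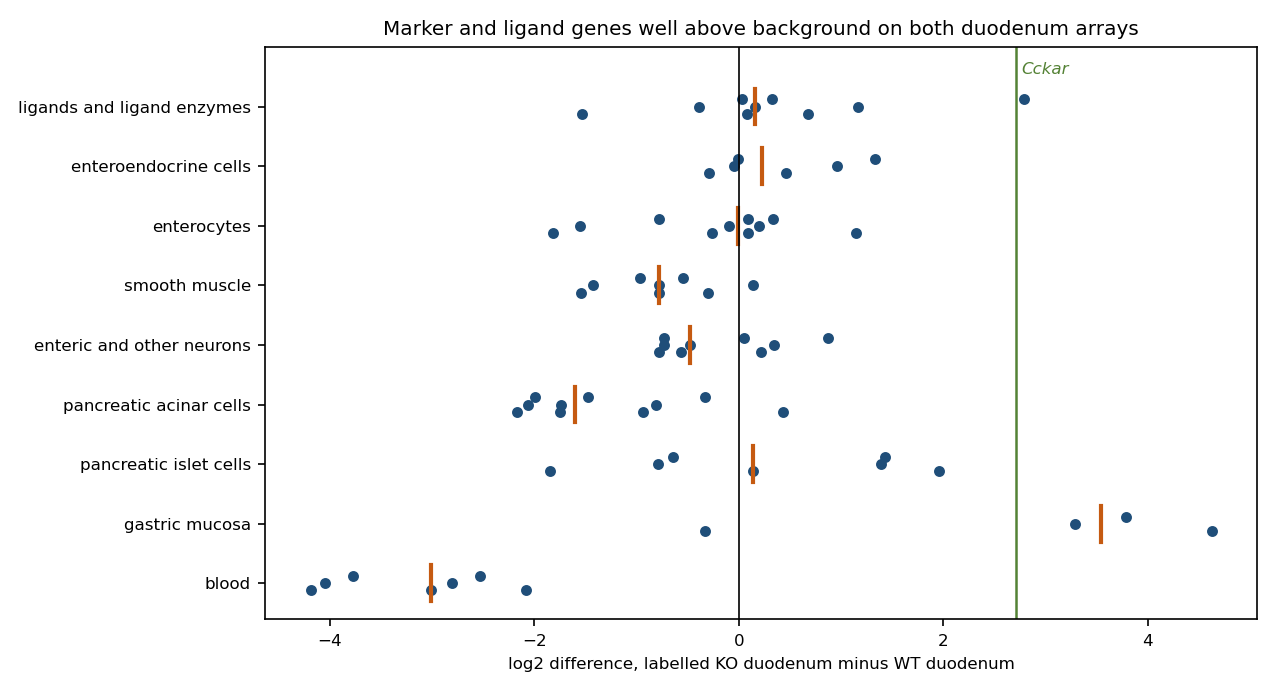
Difference between the KO-labelled and the WT duodenum array (log2, horizontal axis) of the genes in 9 lists of markers and related genes, 1 point a gene, with the list median as an orange bar and *Cckar* at 2.71 as a green line. Gastric mucosa has genes to the right of that line and blood markers lie to the left of 0; with quantile normalization the acinar list, whose median is below 0 here, has a median slightly above 0, and with scaling on spiked-in controls nearly all genes shift up.

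Markers of nerve and muscle of the gut wall are given next, and their part in the *Cckar* difference was not tested. Of 12 markers of enteric and other neurons, 9 were well above background in WT duodenum and 11 in KO-labelled duodenum, with *Snap25* the brightest and *Nos1* on neither. Their summed level was 20.9 and 12.9 in duodenum, in that order, and 144 and 141 in spinal cord. None was at least 2-fold apart between genotypes in either tissue, and the median in duodenum was −0.36 relative to the median gene, with −0.57 to 0.05 over the alternatives. This median is the value of *Elavl4*, whose probe names conflict between the deposited files as described below, and without subtraction it was −0.48, or −0.17 in the deposited table, where those probes are left out. All 8 smooth muscle markers were above background on all arrays, with sums of 189 in WT and 104 in KO-labelled duodenum and *Myl9* the brightest. The actin gene *Actg2* (−1.55) and the desmin gene *Des* (−1.42) were at least 2-fold lower on the KO-labelled array, in each case with the sign turned by scaling on spiked-in controls.

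The scale itself needs 1 remark. When the spiked-in controls set the scale of an array, the median gene differed by 2.89 between the duodenum arrays, instead of −0.11, and 99.9% of the genes apart were higher on the KO-labelled array, instead of 37.7%. Normexp background correction, which models the background before subtraction, gave 21.6%, and 21.5% with flagged local backgrounds replaced. Spiked-in scaling and median centring move all genes of an array alike, so a difference relative to the median gene is the same under them by construction. That of *Cckar* was 2.56 with quantile normalization and 2.49 with both forms of normexp, which do not shift all genes alike.

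The other cholecystokinin receptor, *Cckbr*, binds cholecystokinin and gastrin and is the main type in the CNS. Its brighter probe gave 1020.4 in WT spinal cord, 1147.7 in KO-labelled spinal cord, 0.915 in WT duodenum and 7.72 in KO-labelled duodenum, and was not well above background in WT duodenum. The dimmer probe gave 30.3 and 26.7 in spinal cord, and 2.16 and 1.75 in duodenum, where it was not above background. On the spinal cord arrays the brighter probe differed by 0.07 (technical SD 0.0584) and the dimmer by −0.28 (technical SD 0.131), so both probes lay within 2-fold but had opposite signs. The table of log2 values that the authors deposited attaches the names of 6 probes of 4 genes (*Cckbr*, *Drd5*, *Elavl4* and *Htr1b*) to values other than those in the scanner files, both *Cckbr* probes among them. Which pairing is right is not known, and the values given follow the scanner files. The *Cckbr* signals, the call below background in WT duodenum, the missing value for a genotype difference there and the tissue differences below hold only under that naming. Under the names of the table, the spot given here as *Elavl4*, with signals of 23.8 in WT and 81.2 in KO-labelled duodenum and above background on all 4 arrays, would be one of *Cckbr*, which would then be measured on both duodenum arrays.

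In the spinal cord, 0 of the 9 receptors with a value were at least 2-fold higher and 0 were at least 2-fold lower on the KO-labelled array. Over the 25216 genes above background on at least 1 of both arrays the shares were 2.28% and 0.865%, so 0 of 9 is near the background. These shares are also the background for the counts of the other lists in spinal cord. The median of the 9 was 0.07, against −0.04 over the 24166 genes measured on both arrays. The normexp correction gave 5 receptors at least 2-fold apart, all lower, but moved the median gene to −0.45 and the share of genes higher among those apart from 72.5% to 0.883%. With the flagged local backgrounds replaced, that share was 90.1% and 0 receptors were apart. It was 55.6% with spiked-in scaling, where the median gene was at −0.21. Over all genes, 9653 were at least 2-fold lower with plain normexp, and 19 with flagged backgrounds replaced. Spinal cord values given below under normexp without that replacement carry this effect of the flagged backgrounds.

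*Npy4r*, the receptor with preference for pancreatic polypeptide, gave signals of 2.42 in WT spinal cord, 4.20 in KO-labelled spinal cord, 1.93 in WT duodenum and 0.927 in KO-labelled duodenum. None of these was well above background, and no fold is given. *Npy1r*, a receptor for neuropeptide Y and peptide YY, gave 694 on WT and 694 on KO-labelled spinal cord, where it differed by −0.10 (technical SD 0.0626). Its signal was 3.77 in WT duodenum, not above background, and 14.5 in KO-labelled duodenum. *Npy1r* was thus a transcript of the spinal cord arrays at a near equal level in both.

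*Sctr*, the secretin receptor, controls bicarbonate-rich secretion of pancreatic and bile ducts. Its brightest probe gave 174 in WT spinal cord, 242 in KO-labelled spinal cord, 9.69 in WT duodenum and 35.6 in KO-labelled duodenum, above background on all arrays. In the spinal cord it differed by 0.37 (technical SD 0.0717), and the other 3 probes differed by 0.33, 0.40 and 0.41. All 4 probes were therefore higher on the KO-labelled array by less than 2-fold, and the gene's sign was kept in 6 of 7 alternatives. The spinal cord value was −0.66 under plain normexp and 0.21 with flagged backgrounds replaced. In the duodenum the difference was −0.37 with a technical SD of 0.205, and the other 3 probes were not well above background in WT. With spiked-in scaling the sign turned to 2.63, and with both forms of normexp the value was −1.18, past 2-fold. Relative to the median gene it was −0.25.

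*Gipr* encodes the receptor of the incretin GIP, which enhances insulin release. Its signals were 172 in WT spinal cord, 250.1 in KO-labelled spinal cord, 0.971 in WT duodenum, where it was not above background, and 16.8 in KO-labelled duodenum. The spinal cord difference was 0.44 (technical SD 0.072), with 6.56% of the genes higher. It was −0.48 under plain normexp and 0.33 with flagged backgrounds replaced. *Glp1r*, the receptor of the incretin GLP-1, gave 12.4 in WT spinal cord, 15.1 in KO-labelled spinal cord, 5.26 in WT duodenum, not above background, and 20.2 in KO-labelled duodenum. Its spinal cord difference was 0.18 (technical SD 0.195), and 0.45 (technical SD 0.283) for its second probe, with signals of 7.83 and 11.47. For *Glp1r*, 5 of 7 alternatives kept the sign, with −2.28 under plain normexp and −0.08 with flagged backgrounds replaced.

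*Glp2r*, the receptor through which GLP-2 promotes growth of the intestinal mucosa, was above background on all arrays with both probes. The brighter probe gave 133 in WT spinal cord, 108 in KO-labelled spinal cord, 64.8 in WT duodenum and 450 in KO-labelled duodenum. The dimmer gave 13.5, 10.7, 8.55 and 18.8. In the spinal cord both were lower on the KO-labelled array, by similar amounts, with −0.41 (technical SD 0.0878) and −0.44, and all 7 alternatives kept the sign. In the duodenum they disagreed, with 0.55 (technical SD 0.0892) for the brighter probe and −1.11 (technical SD 0.24) for the dimmer. The mean of both probes was −0.28, so no direction for *Glp2r* in the duodenum follows from these arrays.

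*Ghsr*, the ghrelin receptor, acts in growth hormone release and appetite. Its signals were 35.3 in WT spinal cord, 30.2 in KO-labelled spinal cord, 0.897 in WT duodenum and 0.898 in KO-labelled duodenum. It was detected in spinal cord, with a difference of −0.33 (technical SD 0.124), and in neither duodenum. *Hrh4*, the histamine receptor of immune cells, gave 44.0 in WT spinal cord, 34.3 in KO-labelled spinal cord, 13.1 in WT duodenum and 41.5 in KO-labelled duodenum, all above background. It was lower on the KO-labelled array by normalized level in both tissues, with −0.46 in spinal cord (technical SD 0.123) and −0.59 in duodenum (technical SD 0.17). The duodenum value turned to 2.42 with spiked-in scaling and was past 2-fold, at −1.14, with both forms of normexp. In spinal cord *Hrh4* was at −1.89 with plain normexp and −0.23 with flagged backgrounds replaced. Relative to the median gene, the normalized differences of *Hrh4* were −0.42 in spinal cord and −0.47 in duodenum.

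Several marker lists differed between the WT and the KO-labelled spinal cord array, where the receptors stayed within 2-fold. Over all 25216 genes the shares were 2.28% higher and 0.865% lower. Of 6 Schwann cell markers, 4 were at least 2-fold higher on the KO-labelled array, among them the peripheral myelin gene *Prx* (5.23) and its regulator *Egr2* (2.53, with −0.31 under normexp), and the summed level was 5.37 in WT and 28.8 in KO-labelled spinal cord, *Pmp22* the brightest on both. Of 8 skeletal muscle markers, 7 were higher, led by *Ckm* (4.58), *Acta1* (4.48) and *Tnnt3* (4.12), with sums of 26.9 and 74.0 and *Pvalb*, which neurons also express, the brightest. Of 8 blood markers, 6 were higher, among them *Slc4a1* (1.54) and *Hbb-bs* (1.25), with sums of 232 and 361 and *Hba-a2* the brightest. Lymphocyte markers were higher for 4 of 7 tested, among them *Ms4a1* (2.20, with −1.13 under normexp) and *Cd79b* (1.79). Summed over all 8 of the list they reached 1.08 and 1.40, *Cd4* the brightest. Neuronal markers, with sums of 224 and 215, and markers of dorsal horn and sensory neurons, with 20.1 and 18.5 and *Calca* the brightest, had 0 of 9 and 0 of 8 apart, and *Scn10a* was not above background. By the study's methods, vessels were flushed with PBS ahead of dissection, and 8 of 8 blood markers were still above background on both spinal cord arrays. The part of roots, muscle or blood in the spinal cord values of *Sctr*, *Gipr*, *Glp2r*, *Ghsr* and *Hrh4* was not tested.

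Cells that bear *Hrh4* or release histamine were followed through their markers in the duodenum. Of 9 mast cell markers on the array, 6 were well above background in WT and 6 in KO-labelled duodenum, with *Kit* the brightest and *Cma1*, *Fcer1a* and *Ms4a2* on neither. Their sums were 1.94 and 1.51 in duodenum, and 0.806 and 0.857 in spinal cord. The mast cell proteases *Mcpt4* (−1.90), *Mcpt1* (−1.67) and *Tpsb2* (−1.08) were lower in KO-labelled duodenum, with the sign turned by spiked-in scaling, and *Cpa3* was higher in KO-labelled spinal cord (1.05, with −2.04 under normexp). Of 6 eosinophil markers 3 and 5 were above background in WT and KO-labelled duodenum, with sums of 0.899 and 0.915 and *Prg2* the brightest. None was 2-fold apart there, *Epx* was on neither, and *Ccr3* was higher in KO-labelled spinal cord (1.08, with −2.19 under normexp), where the sums were 2.56 and 4.12. Blood markers were lower in KO-labelled duodenum for 7 of 7, led by *Hba-a2* (−4.19), *Hba-a1* (−4.05) and *Alas2* (−3.77), with sums of 1537 and 89.1, and the list's median stayed below 0 in all alternatives, from −3.01 to −0.01. The part of these cells in the *Hrh4* values was not tested.

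Between the tissues, more receptors and more of all genes were apart than between the genotypes. In WT, 3 of the 9 receptors tested were at least 2-fold higher in duodenum and 3 at least 2-fold lower, against 30.2% and 23.1% of 25219 genes, so the WT shares are near the background. In KO-labelled mice, 4 of 9 were at least 2-fold higher in duodenum and 5 at least 2-fold lower, against 30.3% and 25.4% of 25726 genes. Of these 9 calls, *Sctr* stayed at least 2-fold in 1 of 7 alternatives (−3.04 to −0.24), *Ghsr* in 2 of 5 that gave a value, *Gipr* in 5 of 7 (−0.72 with both forms of normexp), and *Glp1r* and *Hrh4* in 6 of 7. The other 4 stayed so in each. The median gene lay at 0.63 in WT and at 0.30 in KO-labelled tissue, higher in duodenum, and moved to −4.41 and −1.57 with spiked-in scaling. Values relative to the median gene are therefore given beside the differences.

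*Cckar*, *Glp2r* and *Hrh4* were the receptors of the duodenum side in both genotypes. *Cckar* was higher there by 4.92 in WT, or 30.3-fold, and by 7.49 in KO-labelled tissue, or 179.6-fold, which was 4.29 and 7.19 relative to the median gene. *Glp2r* was higher by 2.69 and 3.65, and its dimmer probe pointed the same way, 8.45-fold in WT and 5.32-fold in KO-labelled tissue. *Hrh4* was higher by 1.99 and 1.86. These directions turned in WT with spiked-in scaling, to −0.12 for *Cckar*, −2.34 for *Glp2r* and −3.05 for *Hrh4*, and *Hrh4* was at −0.003 in KO-labelled tissue. With plain normexp the WT values fell to 1.34 for *Cckar*, 1.31 for *Glp2r* and 0.73 for *Hrh4*, the last within 2-fold. Relative to the median gene, *Glp2r* was higher by 2.07 and 3.35 and *Hrh4* by 1.36 and 1.56. With plain normexp these WT values were 0.87 and 0.29, and 0.90 for *Cckar*, and with flagged backgrounds replaced they were 1.60, 1.66 and 2.62.

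*Cckbr*, *Npy1r* and *Gipr* were the receptors of the spinal cord side. In WT they were lower in duodenum by bounds of at least 17.9-fold for *Cckbr*, at least 12.1-fold for *Npy1r* and at least 3.002-fold for *Gipr*. In KO-labelled tissue, where each was measured on both arrays, the differences were −5.63, −3.99 and −2.31. *Ghsr* was at least 2.31-fold lower in KO-labelled duodenum than in spinal cord, and had no bound in WT. The second *Cckbr* probe had no value in WT and was at least 2.05-fold lower in KO-labelled duodenum. The directions were kept under each alternative that gave a value. All WT values are bounds, and the bounds were weaker under some alternatives. Under plain normexp and with flagged backgrounds replaced they were −1.34 and −1.40 for *Cckbr* and −0.74 and −0.62 for *Npy1r*, which no longer show a difference of 2-fold for *Npy1r*, and *Gipr* had none. Averaging both probes gave a bound of −1.62 for *Cckbr* in WT.

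*Sctr* and *Glp1r* were not past 2-fold in both genotypes. *Sctr* differed between tissues by −0.43 in WT and −1.17 in KO-labelled mice, and the WT value ranged from −5.47 to 1.12 over the alternatives. The other probes measured on both KO-labelled arrays gave −1.02 and −0.20, and the remaining one had no value. *Glp1r* was higher in KO-labelled duodenum by 2.004, with 3.95-fold for its second probe, and had no value in WT. Each receptor that was past 2-fold in both genotypes had the same direction in both.

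The ligands of these receptors, with the enzyme that makes histamine, formed a list of 10 genes. In WT duodenum 9 and in KO-labelled duodenum 10 were well above background, and 2 were at least 2-fold higher and 1 at least 2-fold lower on the KO-labelled array. Over all genes the shares were 7.20% and 11.9%. The gene for pancreatic polypeptide, *Ppy*, gave signals of 8.44 in WT and 276 in KO-labelled duodenum, and was not above background in spinal cord. Its difference was 2.79, close to that of *Cckar*, and 0.68 to 5.79 over the alternatives, while its receptor *Npy4r* was not detected. The proglucagon gene *Gcg*, the source of GLP-1 and GLP-2, differed by 1.17, with signals of 44.7 and 476, and was within 2-fold at its lowest over the alternatives, 0.78. *Npy* differed by −1.54, with signals of 47.9 and 78.2 and with 1.46 under spiked-in scaling.

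*Cck*, the ligand of both cholecystokinin receptors, was bright on all arrays, with 11280.1 in WT spinal cord, 11599 in KO-labelled spinal cord, 2440.4 in WT duodenum and 8845 in KO-labelled duodenum. It differed by −0.39 in duodenum, with its sign kept in 4 of 7 alternatives, and by −0.06 in spinal cord. The ligand thus showed no counterpart of the *Cckar* difference. The gastrin gene *Gast* gave 1.02 in WT duodenum, not above background, and 27.5 in KO-labelled duodenum, so that it was higher by at least 0.43. The secretin gene *Sct* differed by 0.03, the ghrelin gene *Ghrl* by 0.08, the peptide YY gene *Pyy* by 0.33 and *Gip* by 0.67, each higher in all 7 alternatives. In the spinal cord, 0 of 7 ligand genes above background were 2-fold apart, from *Gast* at −0.63 to *Hdc* at 0.07, and *Gip*, *Gcg* and *Ppy* were not above background.

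Of 10 enteroendocrine markers, which stand for the cells that make most of these ligands in the gut, 6 were well above background in WT and 9 in KO-labelled duodenum. Their sums were 31.8 and 53.3 in duodenum and 79.1 and 73.1 in spinal cord, with the granin gene *Chga* the brightest on all arrays, and *Pax6* was on neither duodenum array. *Chgb* was higher in KO-labelled duodenum (1.33) under all 7 alternatives, none was at least 2-fold lower, and in spinal cord 0 of 7 were apart. *Gcg* and *Ppy* are also hormone genes of the pancreatic islet, and the islet genes *Iapp* (1.96), *Ins1* (1.43) and *Ins2* (1.39) were higher on the same array. The part of enteroendocrine or islet cells in the *Gcg* and *Ppy* differences was not tested.

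Histamine is made by the product of *Hdc*, stored through *Slc18a2* and broken down by the products of *Hnmt* and *Aoc1*. *Hdc* gave 7.70 in WT and 40.8 in KO-labelled duodenum, a difference of 0.16. In duodenum *Aoc1*, the diamine oxidase gene, differed by 0.65, *Hnmt* by 0.98, *Slc18a2* by 0.83, and the receptors *Hrh1* and *Hrh3* by 0.08 and −0.60. None of the 5 measured was at least 2-fold apart, and of these genes *Aoc1* alone kept its sign in all 7 alternatives. In spinal cord *Hrh1* differed by 0.19, *Hrh3* by −0.36, *Hnmt* by −0.06 and *Slc18a2* by 0.12, and *Aoc1* had a bound of −0.53. *Slc22a3* was not above background on any array, and *Hrh2* was not matched to a probe.

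Related receptors were compared through a list of 37 other peptide receptors. In duodenum, 2 of 23 tested were at least 2-fold higher on the KO-labelled array and 7 at least 2-fold lower. Over all 21434 genes the shares were 7.20% higher and 11.9% lower. The bombesin receptor gene *Grpr* was higher by at least 1.85, and the VIP receptor gene *Vipr2* by 1.14, with −0.33 under normexp. The orexin receptor gene *Hcrtr1* (−2.77), the corticotropin-releasing hormone receptor gene *Crhr2* (−2.36) and the somatostatin receptor gene *Sstr4* (−1.84) were lowest, each with the sign turned by spiked-in scaling. The median of the 16 measured on both arrays was −0.64 relative to the median gene and stayed below it, at −0.96 to −0.55, in all alternatives. In spinal cord 1 of 32, *Prokr2*, was higher (1.005, with −1.996 under normexp), and 0 were lower, against shares of 2.28% and 0.865% over all genes.

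Partners of the receptors and G protein signalling genes gave 1 higher and 3 lower of 24 tested in duodenum, and 0 of 25 apart in spinal cord. Over all genes the shares were 7.20% higher and 11.9% lower in duodenum, and 2.28% and 0.865% in spinal cord. The counts of this list are thus near the background. The G protein subunit gene *Gnai1* was higher (1.14, with −0.32 under normexp), and *Gnai2* (−1.59), *Adcy5* (−1.56) and *Gnai3* (−1.52) were lower, with the sign turned by spiked-in scaling. Of 10 genes of peptide processing and breakdown, 0 were higher and 1, the endothelin-converting enzyme gene *Ece1* (−1.28, turned by spiked-in scaling), was lower in duodenum. In spinal cord the peptidase gene *Dpp4*, whose product inactivates incretins, was higher (1.44, with −1.89 under plain normexp) and 0 were lower.

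For each receptor well above background on all 4 arrays, the genes with the most similar pattern were sought among 12025 genes above background on all arrays, by the root mean square distance between 4 normalized levels after centring each gene on its mean. Among the genes nearest to *Cckar* were *Afp* at 0.42 and *Naip1* at 0.48. *Afp* differed by 1.63 in duodenum and 0.52 in spinal cord. *Glp2r* lay nearest to *Nat8f4* (0.0531), *Map3k21* (0.0999) and *Pipox* (0.106), *Sctr* to *Hspa1a* (0.0721), *Sox17* (0.0753) and *Lypd2* (0.0754), and *Hrh4* to *Fpgs* (0.063), *Adgrg2* (0.0667) and *P2rx2* (0.0766). With 4 values a gene, and many genes to choose from, these distances are descriptions.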

How the data were processed

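RNA of 2 tissues and 2 genotypes was read on 4 1-colour arrays, 1 per group, with signal over background as the limit of each value. Per the labels, 0.1 µg RNA with an integrity number above 7.0 was labelled. The authors deposited the output of Agilent Feature Extraction 11.5.1.1, whose processed signal is a background-subtracted, detrended intensity. They also deposited a table of log2 values. That table was rebuilt as log2 of the signal, raised to at least 1, after quantile normalization. It differed from the rebuilt values by a median of 0.000382 to 0.00218, with medians of 5.12, 5.12, 5.11 and 5.12 per array. It was used as an alternative, without the 6 probes whose names conflict.

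Control spots and 133, 91, 105 and 89 outlier spots of 43020 (WT spinal cord, KO-labelled spinal cord, WT duodenum and KO-labelled duodenum) were left out. Spots of a probe were averaged. Of 26391 probes with a RefSeq mRNA accession, 25868 were named through RefSeq, and other probes kept the name in the file. Named genes were all 10 receptors, all ligand and histamine genes above background, and, per list and genotype comparison, genes among the 3 highest and 3 lowest that were at least 2-fold apart. *Ptf1a* and *Pgc* were added after their values were seen. The members, gene lists and marker lists were chosen with earlier results of these data known. The technical SD is the median SD of the 50 nearest replicated probes in brightness, combined over both arrays. No test was made, since each group has 1 array.

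Choices were varied 1 at a time, save that the filter and the bounds were dropped together, in 10 alternatives: normexp with offset 50, the same with flagged local backgrounds replaced, quantile normalization, median centring, scaling on 8 spiked-in control probes, the deposited table, averaging of all probes for a gene, a 1.5-fold threshold, a signal well above background on both arrays, and no filter or bounds. The first 7 alter values. Steps were tested on simulated data. Python 3.11.15, numpy 2.4.6, pandas 2.3.3, R 4.3.3 and limma 3.58.1 were used.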

Additional observations from a re-analysis of the deposited data

Results flagged for a closer look

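For *Sctr* and *Glp2r* the difference between the KO-labelled and the WT array had opposite signs in the 2 tissues. *Sctr* differed by −0.37 in duodenum and 0.37 in spinal cord, and the gap between the tissues was −0.74. For *Glp2r* the values were 0.55 and −0.41, and the gap was 0.96, but its dimmer probe was lower on the KO-labelled array in both tissues. Neither gap was tested, since each group has 1 array.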

How the results depend on the processing

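The *Cckar* difference in duodenum kept its direction and stayed at least 2-fold in all 7 alternatives that alter values, from 2.31 to 5.72. For this gene, which has 1 probe, averaging of probes could change nothing, and the deposited table repeats quantile normalization. The number of receptors at least 2-fold apart in duodenum was 1, and became 3 with normexp, 3 with flagged local backgrounds replaced (*Sctr* and *Hrh4* being added, both lower), 8 with scaling on spiked-in controls, 2 at 1.5-fold and 4 with no filter and no bounds. In spinal cord it was 0, and 5 with normexp. Between the WT tissues it was 6, and 3 with normexp and 3 where a signal above background on both arrays was required, which leaves out the bounds. Between the KO-labelled tissues no alternative moved the count of 9 by over 1.5 times. That count was 6 with both forms of normexp and with the deposited table, where *Cckbr* was left out and could not be counted. Scaling on spiked-in controls reversed the WT tissue difference of *Cckar* to −0.12, of *Glp2r* to −2.34 and of *Hrh4* to −3.05, and that of *Hrh4* in KO-labelled tissue to −0.003, by shifting all genes of an array alike. Apart from the omission of *Cckbr* from the deposited table, the cause of the other changes was not tested. Of 196 recomputed receptor differences, 73 stayed within the technical SD, 119 moved by more, and 4 reversed, which counts only differences of at least 2-fold whose sign turned. The 73 include values that could not move, since averaging of probes alters nothing for a receptor with 1 probe. The sign also turned in 14 values whose main difference was within 2-fold.

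Over all genes, counts past the threshold moved by over 1.5 times as follows. In duodenum, 1543 higher became 843 and 841 with both forms of normexp, 20611 with spiked-in scaling, 3647 at 1.5-fold and 2462 with no filter and no bounds, and 2552 lower became 18 with spiked-in scaling, 4835 at 1.5-fold and 12540 with no filter and no bounds. In spinal cord, 576 higher became 86 and 173 with both forms of normexp, and 1318 at 1.5-fold, and 218 lower became 9653 and 19 with both forms of normexp, 144 with quantile normalization, 353 with spiked-in scaling, 142 with the deposited table, 808 at 1.5-fold, 128 with both arrays above background and 875 with no filter and no bounds. In that last setting the genes apart in either direction went from 794 to 1980, of which 55.8% were higher, so that the higher ones also moved by over 1.5 times. On the WT spinal cord array 1 flagged local background reached 15708, and the mean background fitted by normexp was −317 with it and −2.99 with flagged values replaced. Between WT tissues, 7618 higher became 4612 with normexp, 860 with spiked-in scaling and 16461 with no filter and no bounds, and 5815 lower became 2867 and 3341 with both forms of normexp, 23284 with spiked-in scaling and 3530 with both arrays above background. Between KO-labelled tissues, 7799 higher became 2452 with spiked-in scaling and 12913 with no filter and no bounds, and 6526 lower became 3738 and 3736 with both forms of normexp and 16704 with spiked-in scaling. The share higher among genes apart between tissues was 56.7% in WT and 54.4% in KO-labelled mice, 3.56% and 12.8% with spiked-in scaling, and 70.1% and 69.5% with normexp and flagged backgrounds replaced. With plain normexp it was 69.5% in KO-labelled mice.

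No paired analysis was possible because a genotype was read on a single array in either tissue. The dim WT duodenum array limits the comparison of genotypes there to 4 receptors under the scanner files' probe names.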

Other observations

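Further cell types were followed with marker lists that bear on few of the receptors. Of 6 endothelial markers 0 were higher and 2 lower in KO-labelled duodenum, *Kdr* (−2.42) and *Tek* (−1.17), with the sign turned by spiked-in scaling, and 0 were apart in spinal cord. Of 6 macrophage markers, *Cx3cr1* was higher in KO-labelled duodenum (1.12) and *Lyz2* in KO-labelled spinal cord (1.42), each under all 7 alternatives. Of 8 lymphocyte markers, *Cd8a* was higher (1.24) and *Cd79a* lower (−1.06, turned by spiked-in scaling) in KO-labelled duodenum. Of 10 enterocyte markers, the glucose transporter gene *Slc5a1* was higher (1.15) under all 7 alternatives. *Fabp2* (−1.81) and *Apoa1* (−1.56) were lower, at −0.18 and −0.44 with quantile normalization, and the sign turned with spiked-in scaling.

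In duodenum the Schwann cell marker *Pmp22* (−2.53), the skeletal muscle markers *Pvalb* (−2.52) and *Ckm* (−1.40), the oligodendrocyte marker *Mag* (−1.70) and *Lmx1b* (−1.55) of the dorsal horn list were lower on the KO-labelled array, each with the sign turned by spiked-in scaling. The neuronal marker *Syt1* was higher there by at least 1.03. In spinal cord, 0 of 8 oligodendrocyte markers and 0 of 6 astrocyte markers were at least 2-fold apart, with medians of 0.10 and −0.22. Of 8 smooth muscle markers, *Des* (3.44, with −0.31 under normexp) and *Smtn* (1.30) were higher on the KO-labelled spinal cord array.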
